A study of Mus musculus with 6 samples.

Results

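Amino acids enter astrocytes through a few gene families of the solute carrier series, and 6 of these families were followed here: the Slc1 carriers of glutamate and small neutral amino acids, the Slc3 heavy chains, the Slc7 light chains and cationic carriers, the proton-coupled Slc36 carriers, the sodium-coupled Slc38 carriers and the Slc43 carriers. Probes were chosen by gene symbol, and no difference between groups entered that rule. The families were, however, picked with earlier results of these data known. The array carried 45 probes of these families, and 41 probes of 37 genes had a value on at least 3 of the 6 arrays in the authors' table, out of 23473 probes in all. Just inside that limit stood the probes of Slc36a1 and Slc36a2, with values on 3 arrays each. Just outside it stood Slc7a1 with 2 values, Slc7a8 and Slc7a12 with 1 and Slc7a9 with 0. Of the 41 probes, 39 lay above background on at least 3 arrays and were tested, and the 2 that did not were those of Slc36a1 and Slc36a2.

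The astrocytes came from the cortex of newborn C57BL/6J mice (postnatal day 0) homozygous for a floxed Chd7 allele, the gene of a chromatin remodeller. All cultures shared that genotype and a medium that held EGF, FGF2, B-27 supplement and 10% FBS. The 3 control samples received a control lentivirus and the 3 Cre samples, titled Chd7 KD, a Cre lentivirus, and RNA was taken 3 days later. No group had Cre without floxed alleles, so Cre itself and loss of Chd7 cannot be told apart, and neither the promoter that drives Cre nor the share of infected cells is given in the sources used here. The labels do not say whether replicates were separate cultures or animals, and a p-value here speaks only of the spread among these 6 samples, possibly a technical one.

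These carriers differ in what drives them. Slc1a2 and Slc1a3 are the sodium-driven glutamate transporters with which astrocytes clear synaptic glutamate. Heavy chains such as Slc3a2 carry light chains such as Slc7a5 or Slc7a11 to the cell surface, and the light chain decides the substrate, while the cationic carriers of the Slc7 family work without a heavy chain. Slc38 carriers move glutamine, which astrocytes make from glutamate and release to neurons. When amino acids run short, the transcription factor ATF4 turns on several of these genes through amino acid response elements.

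Each array had 83.7 to 90.7% of its probes above background, with the lowest share in Cre replicate 2, and any pair of arrays correlated at r of 0.985 or more. The brighter Chd7 probe read -1.13 log2 units lower in Cre cultures (SE 0.16, limma adjusted p = 0.399), and the dimmer one, whose groups overlapped, differed by -0.11 (SE 0.06, limma adjusted p = 0.999). Over all probes tested, 2.75% were higher and 2.83% lower in Cre cultures at an unadjusted p under 0.05. Differences above 0 were found for 10309 of the 20747 probes. Astrocyte markers were measured for 13 of 13 genes, of which 12 were higher in Cre cultures (median log2 difference 0.24), 5 of them at an unadjusted p under 0.05. Their summed linear values were 4817 to 8506 in control and 6477 to 7727 in Cre arrays. Of the microglia and macrophage markers, 11 of 14 measured genes were lower (median -0.14), 5 at an unadjusted p under 0.05, with sums of 448 to 516 in control and 323 to 430 in Cre arrays. Of these markers, 1 of the 3 higher genes reached that level (Cd68), and Itgam was not well above background. Marker medians of the other cell types were -0.02 for the oligodendrocyte lineage, -0.10 for fibroblasts and mural cells, 0.08 for ependyma, 0.01 over 3 endothelial genes and 0 over 9 neuronal ones. The neuronal genes went both ways, with Nefm (0.39) and Nefl (0.16) higher and Stmn2 (-0.34) lower at an unadjusted p under 0.05. Pecam1, Cldn5 and Tek of endothelium were not well above background. The part of these cells in the transporter values was not tested, and in bulk RNA fewer cells of a type and less RNA per cell cannot be told apart.

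No transporter passed the test across all probes. In limma, 0 of 39 transporter probes had an adjusted p under 0.05, as did 0 of the 20747 probes tested (0%). At an unadjusted p under 0.05 there were 3 transporter probes (7.69%), against 5.59% of all probes. Slc38a10 was the 1 higher (2.75% of all probes were higher at that level), and Slc7a3 and Slc7a11 were the 2 lower (2.83% of all probes). The 3 Cre arrays lay wholly above or below the 3 control arrays for 3 transporter probes, those of Slc7a11, Slc38a10 and Slc43a3, or 7.69% against 10.5% of all probes. Both shares lie near those of all probes and are no result about the families. The median log2 difference was 0.011 over the 39 probes and -0.001 over all probes, with 25 transporter probes above 0 and 14 below. Of all 20747 probes, 10309 lay above 0 and 10438 below. Brightness limited what could be seen: 11 of the 39 probes averaged under 6 log2 units, close to the blank spots, and all 11 differed by less than 0.1, while 13 of the 28 brighter ones differed by 0.1 or more.

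**Figure D1:**
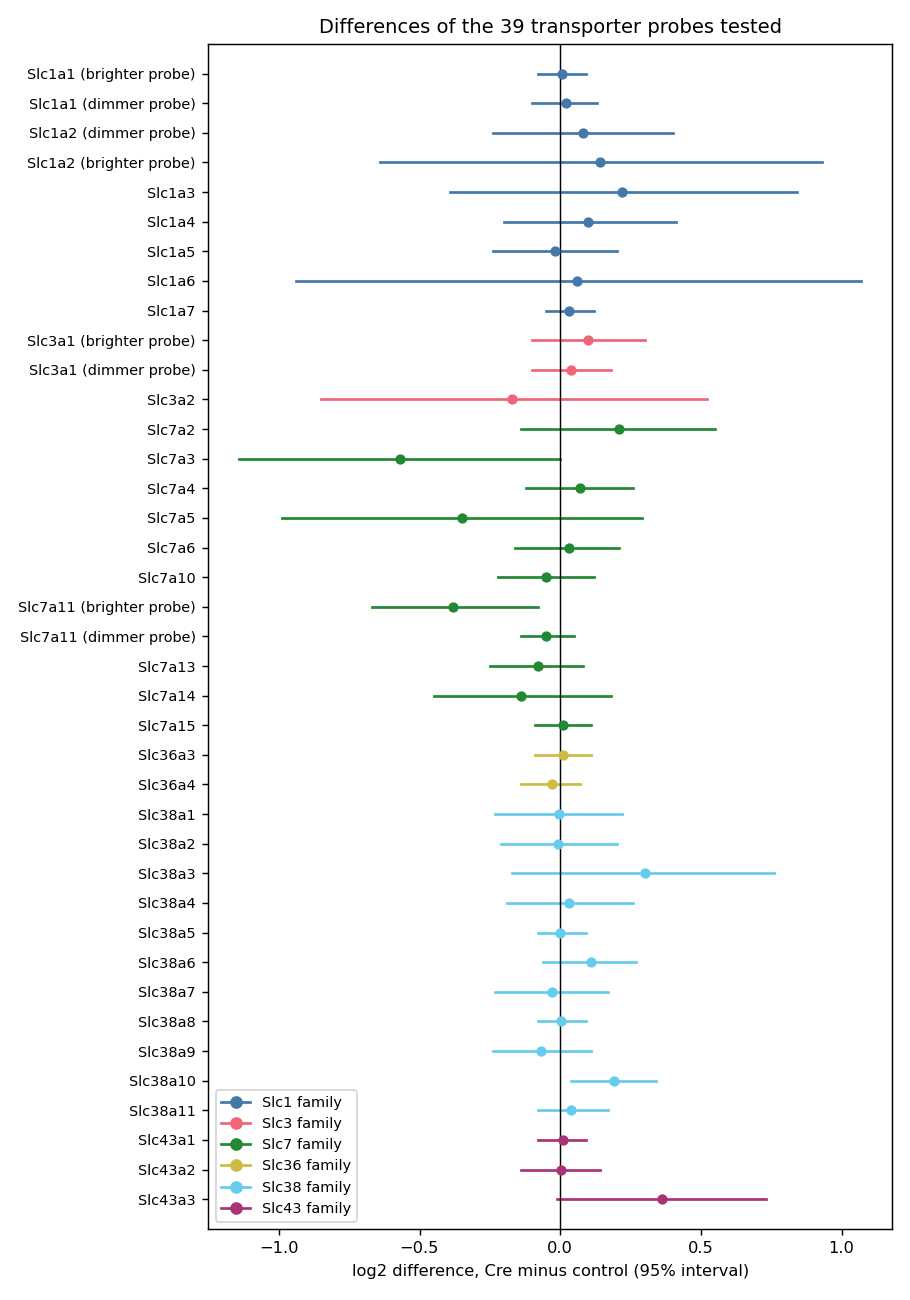
Log2 difference (Cre minus control, x axis) of each of the 39 transporter probes tested, with its 95% interval from limma (n = 3 arrays per group), coloured by family. Intervals that leave out 0 belong to the brighter Slc7a11 probe, to Slc38a10 and to Slc7a3, whose interval ends just below 0.

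The glutamate transporters of astrocytes were well above background and did not separate the groups. Slc1a3, known as GLAST, read 10.68, 11.41 and 11.35 log2 units in control replicates 1, 2 and 3 and 11.08, 11.34 and 11.69 in Cre replicates 1, 2 and 3. The groups overlapped, and the lowest value was that of control replicate 1. The difference was 0.22 (SE 0.25, 95% interval -0.39 to 0.84, adjusted p = 0.999), and it was -0.0087 without control replicate 1. In the authors' linear table, where every array has a median of 25, Slc1a3 read 919, 1742 and 1718 in control and 1226, 1300 and 1919 in Cre arrays.

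Slc1a2, known as GLT-1, had 2 probes. The brighter read 8.63, 9.46 and 8.47 in control and 8.63, 9.36 and 9.0 in Cre arrays, a difference of 0.14 (SE 0.31, interval -0.64 to 0.93). Its replicates spread further apart than its groups, with replicate 2 the highest in each group, and its spread within groups exceeded that of 98.7% of all probes. The dimmer probe read 0.08 (SE 0.13) higher in Cre arrays. Its interval, from -0.24 to 0.40, is narrower than that of the brighter probe. In the authors' linear table the dimmer probe read 26 to 54 and the brighter one 192 to 449. A fixed offset added before the log compresses dim probes, so the narrower interval cannot be read as greater precision.

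The neutral carriers of the same family were as close between groups. Slc1a4, which exchanges alanine, serine and cysteine, read 7.69, 8.0 and 7.61 in control and 8.02, 7.79 and 7.79 in Cre arrays (difference 0.10, SE 0.12). Slc1a5, a glutamine exchanger of proliferating cells, read 6.30, 6.36 and 6.51 against 6.31, 6.28 and 6.52 (difference -0.02, SE 0.09). Both genes overlapped between groups. Slc1a1, a glutamate carrier of neurons, lay near background with both probes, at 5.77 and 5.75 log2 units in control arrays and differences of 0.006 (SE 0.04) and 0.02 (SE 0.05).

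Slc1a6, a glutamate transporter best known from Purkinje cells, varied by replicate number instead of by group, an observation made after its values were seen. It read 7.70, 6.39 and 6.67 in control and 7.50, 6.66 and 6.78 in Cre arrays, so replicate 1 was the highest in each group. In the authors' table the same probe read 92, 22 and 32 in control and 78, 27 and 35 in Cre arrays. Its difference between groups was 0.06 (SE 0.40), and its spread within groups was the widest of the 39 probes, above 99.4% of all probes.

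**Figure D2:**
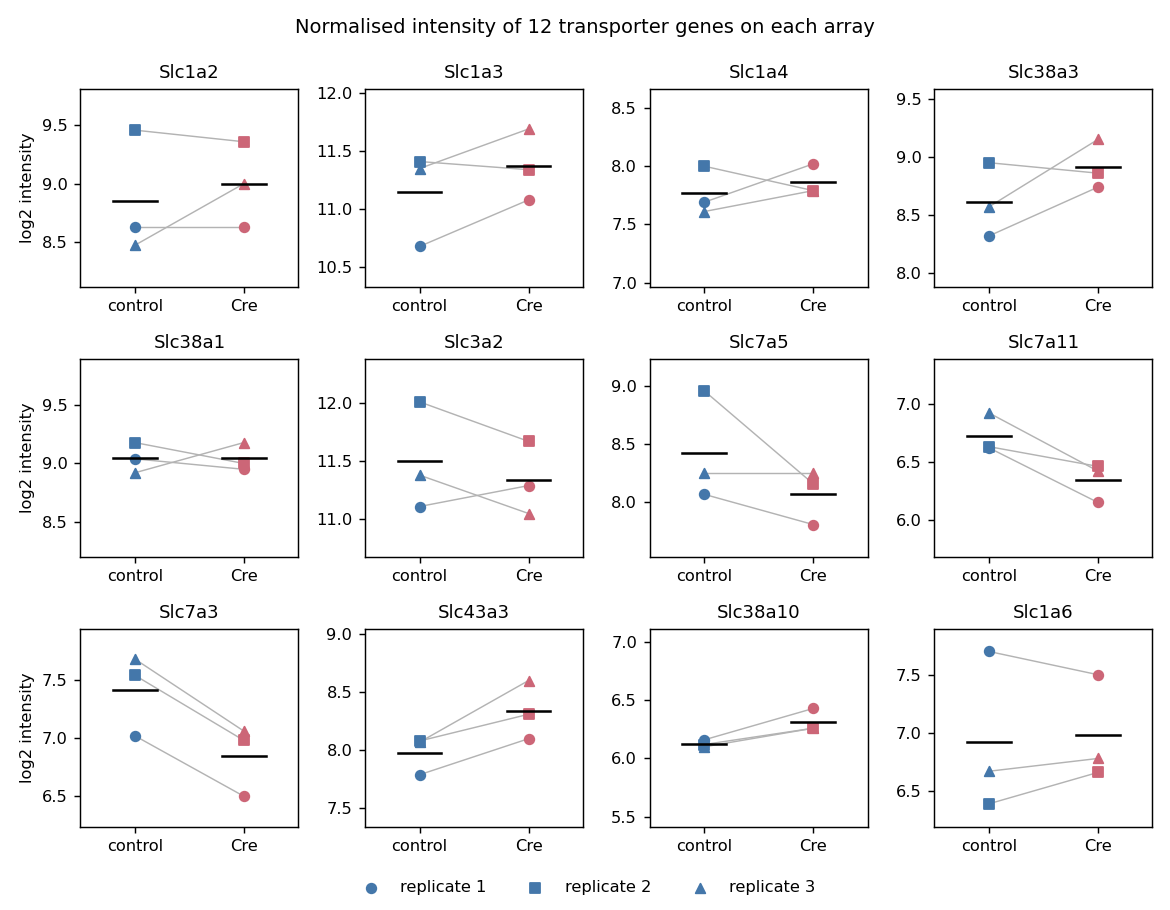
Normalised log2 intensity (y axis, the same span of units in each panel) of 12 transporter genes on the 3 control and 3 Cre arrays, with symbols for the replicate number, grey lines joining equal numbers and black bars for the means. Slc7a11, Slc38a10 and Slc43a3 show no overlap between groups, whereas replicate 1 is the highest of each group for Slc1a6 and replicate 2 for the brighter Slc1a2 probe.

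The heavy chain Slc3a2 and its light chain Slc7a5 were lower on average in Cre cultures, within the spread of the arrays. Slc3a2, also called 4F2hc or CD98, read 11.11, 12.01 and 11.38 in control and 11.29, 11.67 and 11.05 in Cre arrays, a difference of -0.17 (SE 0.27, interval -0.85 to 0.52). Slc7a5, the large neutral amino acid transporter LAT1, read 8.07, 8.96 and 8.25 in control and 7.81, 8.16 and 8.25 in Cre arrays, a difference of -0.35 (SE 0.26, interval -0.99 to 0.29, adjusted p = 0.999). Control replicate 2 gave the highest value of each gene, and without it the differences were 0.09 for Slc3a2 and -0.08 for Slc7a5. With the scanner's local background subtracted, Slc3a2 read 0.72 higher in Cre arrays. That background was itself higher around the probes of every Cre array (averages of 266 to 322 units) than of every control array (179 to 232). Its part in the values given with the local background was not tested. The authors' linear values of Slc7a5 were 127, 308 and 160 in control and 103, 120 and 149 in Cre arrays. The other heavy chain, Slc3a1, which pairs with the light chain Slc7a9 in kidney, read 0.10 (SE 0.08) higher with its brighter probe and 0.04 (SE 0.06) higher with the dimmer one.

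Slc7a11 encodes xCT, the light chain that brings in cystine in exchange for glutamate and so feeds glutathione synthesis. Its RefSeq promoter, printed here since the gene is the transporter with the lower Cre values that do not overlap the controls and since it holds the letters of an amino acid response element, lies on the minus strand of GRCm38.p6 at chr3:50443614-50443733. Capitals mark TGATGNAA, the core of such elements, read on either strand (TGATGCAA on the gene's strand and its reverse complement TTGCATCA), in the 120 bases that end at the gene's start.
Slc7a11: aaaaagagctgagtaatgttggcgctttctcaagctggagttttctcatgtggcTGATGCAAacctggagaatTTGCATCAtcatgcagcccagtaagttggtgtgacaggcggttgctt
The first match begins 66 bases before the start and the second, on the opposite strand, 47 bases before it, and they do not overlap. Of the 27 transporter genes with a promoter in the table, 2 held at least 1 match in 250 bases before to 50 bases after a start, Slc7a11 and Slc1a4, or 7.41% against 4.51% of all genes in the table. The genes without a promoter entry, which were not searched, include Slc7a3, Slc7a5, Slc7a2, Slc1a5, Slc38a1, Slc38a3 and Slc43a3. Of all 32851 promoters, 3.97% held a match and 0.07% held 2 or more. The Slc1a4 match lies across the start itself, at chr11:20332710-20332833 on the minus strand.
Slc1a4: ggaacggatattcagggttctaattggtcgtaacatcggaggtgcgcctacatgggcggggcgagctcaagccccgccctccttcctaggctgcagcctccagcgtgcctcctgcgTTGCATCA
A match describes these letters only, and Slc1a4, with its match, read 0.10 higher in Cre cultures, and -0.10 with the local background.

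In the arrays, Slc7a11 was lower in every Cre sample than in every control. The brighter probe, M200013849, read 6.62, 6.63 and 6.92 log2 units in control and 6.15, 6.46 and 6.42 in Cre arrays. The group means were 6.72 ± 0.17 and 6.34 ± 0.17 (SD, n = 3), a difference of -0.38 (SE 0.12, interval -0.67 to -0.08). The limma p was 0.0213 unadjusted and 0.764 adjusted, and the exact permutation p (two-sided) was 0.1, as low as groups of 3 can reach. In the authors' linear table the same probe read 29, 32 and 44 in control and 12, 20 and 21 in Cre arrays, or 50.5% of the control mean. Its log2 difference in that table was -0.96, beside a median of -0.155 over all probes. The offset of 50 units added before the log compresses dim probes such as this one: with plain subtraction of the blank mean the difference was -0.85, and with the scanner's local background -0.15. The unadjusted limma p stood above 0.05 with that local background (0.211), without control replicate 3 and without Cre replicate 1, the last 2 each at -0.28. The dimmer probe, M400016957, lay at 5.75 and 5.71 log2 units, near background, and differed by -0.05 (SE 0.04).

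Slc7a3, an arginine and lysine carrier of the cationic type, had the largest difference of the 39 transporter probes. It read 7.02, 7.54 and 7.68 in control and 6.50, 6.98 and 7.06 in Cre arrays, means of 7.42 ± 0.35 and 6.85 ± 0.30 (SD, n = 3). The groups overlapped by 1 pair of arrays, as Cre replicate 3 lay above control replicate 1. The difference was -0.57 (SE 0.23, unadjusted p = 0.0491, adjusted p = 0.889), past the 0.5 log2 units that 0.482% of all probes reached. Between arrays of the same replicate number the difference was -0.52, -0.57 and -0.62. In the authors' table Slc7a3 read 47, 94 and 96 in control and 24, 39 and 49 in Cre arrays, or 47.3% of the control mean. The log2 difference in that table was -1.05, beside a median of -0.155 over all probes. On the log2 scale the difference was -0.91 with plain subtraction and -0.36 with the local background. The unadjusted limma p stood above 0.05 when control replicate 2 or 3 or any Cre replicate was left out, with differences between -0.68 and -0.40. It also did so with no background correction (0.0518), with no background filter (0.0508) and with array weights (0.0833).

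Control and Cre arrays of the same replicate number deviated together from their group means (r = 0.498, 0.425 and 0.436), though the labels state no pairing. The SEs and intervals given for each gene come from the fit without this number. As a block, the number changed the SE from 0.23 to 0.04 for Slc7a3, from 0.31 to 0.14 for the brighter Slc1a2 probe and from 0.09 to 0.10 for Slc38a1. With the number as a block, 5 of 39 transporter probes had an unadjusted p under 0.05 (12.8%, against 9.32% of all probes), in place of 3, and 0 had an adjusted p under 0.05. Slc7a3 then stood at a limma adjusted p of 0.393, equal to the smallest of any probe in that fit. Several probes shared that value, among them those of Atf4, Asns and Psph. Slc7a2, another cationic carrier, joined at an adjusted p of 0.433 and Slc43a3 at an adjusted p of 0.400. These 2 cationic carriers had opposite signs. Slc7a2 read 6.60, 6.30 and 6.53 in control and 6.78, 6.43 and 6.84 in Cre arrays, higher by 0.18, 0.13 and 0.31 in the same-numbered pairs, beside the lower Slc7a3. The difference between these 2 genes was not tested.

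**Figure D3:**
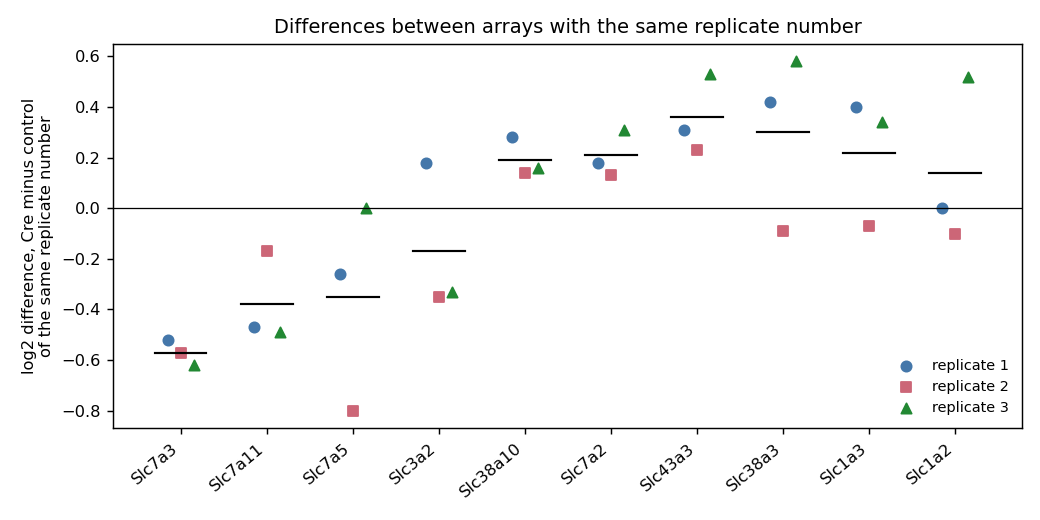
Log2 difference between the Cre and the control array of each replicate number (y axis) for 10 transporter genes, with a black bar at the mean. The 3 values of Slc7a3 lie between -0.62 and -0.52, those of Slc7a5 between -0.80 and 0, and the 3 pairs of Slc38a10, Slc7a2 and Slc43a3 are all above 0.

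The remaining Slc7 members gave small differences. Slc7a10, the glycine and D-serine carrier Asc-1, read 6.24, 6.30 and 6.20 in control and 6.09, 6.32 and 6.17 in Cre arrays (difference -0.05, SE 0.07). Slc7a14, a lysosomal cationic member, read 8.35, 8.47 and 8.47 against 8.03, 8.50 and 8.36, with only Cre replicate 1 apart from the rest (difference -0.14, SE 0.13). Slc7a4, Slc7a6, Slc7a13 and Slc7a15 differed by 0.07, 0.03, -0.08 and 0.01. Slc7a1, the common cationic carrier, was above background on 1 array only, and Slc7a8, a light chain of neutral amino acids, likewise on 1, so neither has a difference here.

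Among the Slc38 carriers, the glutamine carriers of astrocytes and neurons overlapped between groups. Slc38a3, the system N carrier by which astrocytes release glutamine, read 8.32, 8.95 and 8.57 in control and 8.74, 8.86 and 9.15 in Cre arrays. The difference was 0.30 (SE 0.19, interval -0.17 to 0.76, adjusted p = 0.999), and it rested on replicates 1 and 3, since in replicate 2 the Cre array was lower by -0.09. Without control replicate 2 it was 0.47 (limma adjusted p = 0.665), and with the local background it turned to -0.74 (limma adjusted p = 0.810). Slc38a1, a system A carrier, read 9.04, 9.18 and 8.92 against 8.95, 9.0 and 9.18 (difference -0.0027, SE 0.09, interval -0.23 to 0.22). With the local background it differed by -0.80 (SE 0.62), outside that interval. Slc38a2, the system A carrier that amino acid shortage turns on, read 6.31, 6.22 and 6.46 against 6.26, 6.26 and 6.44 (difference -0.0067, SE 0.08). The interval of Slc38a2, from -0.21 to 0.20, is as narrow as that of Slc38a1. However, Slc38a2 was dimmer, and the offset added before the log compresses dim probes. With plain subtraction of the blank mean the SE was 0.22 for Slc38a2 and 0.15 for Slc38a1. The equal width therefore does not mean that both genes were measured with equal precision. Slc38a5, the other system N carrier, stayed within 6.29 to 6.34 on all 6 arrays. Slc38a9, the lysosomal arginine sensor that acts on mTORC1, read 7.47, 7.28 and 7.36 against 7.33, 7.39 and 7.20 (difference -0.07, SE 0.07). In the authors' table Slc38a9 read 75, 71 and 70 in control and 66, 60 and 56 in Cre arrays, without overlap. Its log2 difference there was -0.25 (limma adjusted p = 0.561), beside a median of -0.155 over all probes. The share of all probes without overlap was not counted in that table.

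Slc38a10, a less studied member of this family, was higher in every Cre sample than in every control. It read 6.16, 6.12 and 6.10 in control and 6.43, 6.26 and 6.26 in Cre arrays, means of 6.12 ± 0.03 and 6.32 ± 0.10 (SD, n = 3). The difference was 0.19 (SE 0.06, interval 0.04 to 0.34, unadjusted p = 0.0203, adjusted p = 0.760). Its authors' values were 13, 12 and 11 in control and 22, 14 and 15 in Cre arrays, or 142% of the control mean, so Cre replicate 1 stood apart. Without that array the difference was 0.13, and over all arrays it was 0.58 with plain subtraction and 0.06 with the local background. The unadjusted limma p was 0.222 with that local background, 0.0544 in the authors' table and 0.0606 without control replicate 3. Slc38a4, Slc38a6, Slc38a7, Slc38a8 and Slc38a11 differed by 0.03, 0.11, -0.03, 0.0044 and 0.04.

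Slc43a3, which moves purine nucleobases in spite of its place in a family of amino acid carriers, was named after its values were seen. It read 7.79, 8.08 and 8.07 in control and 8.10, 8.31 and 8.60 in Cre arrays, with no overlap. The difference was 0.36 (SE 0.15, interval -0.01 to 0.73, unadjusted p = 0.0554, adjusted p = 0.917). In the authors' linear table, 100, 152 and 137 in control stood against 132, 135 and 198 in Cre arrays, and there the groups overlapped. Slc43a2, a carrier of large neutral amino acids, and Slc43a1 lay near background and differed by 0.0022 (SE 0.06) and 0.0089 (SE 0.03). Of the proton-coupled carriers, Slc36a1, found on lysosomes, was above background on 1 array and Slc36a2 on 2, and Slc36a3 and Slc36a4 differed by 0.01 and -0.03.

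Other genes of amino acid use gave a frame for these values. None of the genes in the 6 lists passed across all probes, with or without the replicate block. Counts at an unadjusted p under 0.05 are given without the block first. Over all probes, 2.75% were higher and 2.83% lower at that level without the block, and 9.32% reached it in either direction with the block. No list's count was tested against these shares, and the lists were chosen with earlier results of these data known. In the amino acid shortage response, 14 of 15 genes were measured, 10 lower and 4 higher (median -0.14), with 4 lower and 1 higher at an unadjusted p under 0.05. With the block it was also 4 and 1, with Nupr1 (-0.45) in and Atf5 (-0.34) out. Atf4 itself read 11.02, 11.10 and 11.04 in control and 10.36, 10.75 and 10.36 in Cre arrays (-0.56, SE 0.12, adjusted p = 0.541). Trib3, a pseudokinase that ATF4 turns on, read -0.53 (SE 0.13) and Jdp2, a partner of such factors, -0.19 (SE 0.04), while Ddit4, a brake on mTORC1, read 0.52 (SE 0.14) higher. Among enzymes, asparagine synthetase Asns read -0.86 (SE 0.18), Asnsd1 -0.30 (SE 0.07) and glutamine synthetase Glul 0.23 (SE 0.08), the 3 of 13 measured glutamate and glutamine genes at that level (median 0.04). With the block Glul was no longer at that level (limma adjusted p = 0.555), which left 2.

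The cystine and glutathione genes, some of which use the cystine that xCT takes up, went both ways. Chac1, which breaks down glutathione, read 9.04, 9.13 and 9.30 in control and 8.04, 8.85 and 8.57 in Cre arrays (-0.67, SE 0.21), and Cth, which makes cysteine from cystathionine, read -0.61 (SE 0.18), each without overlap between groups. The subunits of the enzyme that starts glutathione synthesis read 0.20 (SE 0.18) for Gclc and -0.26 (SE 0.25) for Gclm, and the median of the 10 measured genes of this list was 0.04. Chac1 and Cth were the 2 at an unadjusted p under 0.05, and with the block Cbs, which makes cystathionine, joined them from above 0 (0.24). Serine and glycine enzymes (8 of 8 measured, median -0.10) had 0 genes at an unadjusted p under 0.05 without the block and 2 lower ones with it. These were Psph, the last enzyme of serine synthesis (-0.52, limma adjusted p = 0.928 without and 0.393 with the block), and Mthfd2, a mitochondrial folate enzyme (-0.44, limma adjusted p = 0.956 and 0.473). The lysosomal sensing list of mTORC1 had 21 of 24 measured genes above 0, with a median of 0.06 and 0 at that level, and with the block 1, the GTPase Rragd (0.33, limma adjusted p = 0.999 without and 0.393 with it). Of all 20747 probes, 10309 lay above 0, and these direction counts were not tested. Amino acid carriers outside the 6 families had 20 of 24 genes measured, 17 above 0 (median 0.03), and 1 at that level: Ctns, which exports cystine from lysosomes, read 6.45, 6.46 and 6.54 in control and 6.66, 6.61 and 6.66 in Cre arrays (0.16, SE 0.04, adjusted p = 0.642), with no overlap. With the block Slc6a17 (0.11) joined it.

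**Figure D4:**
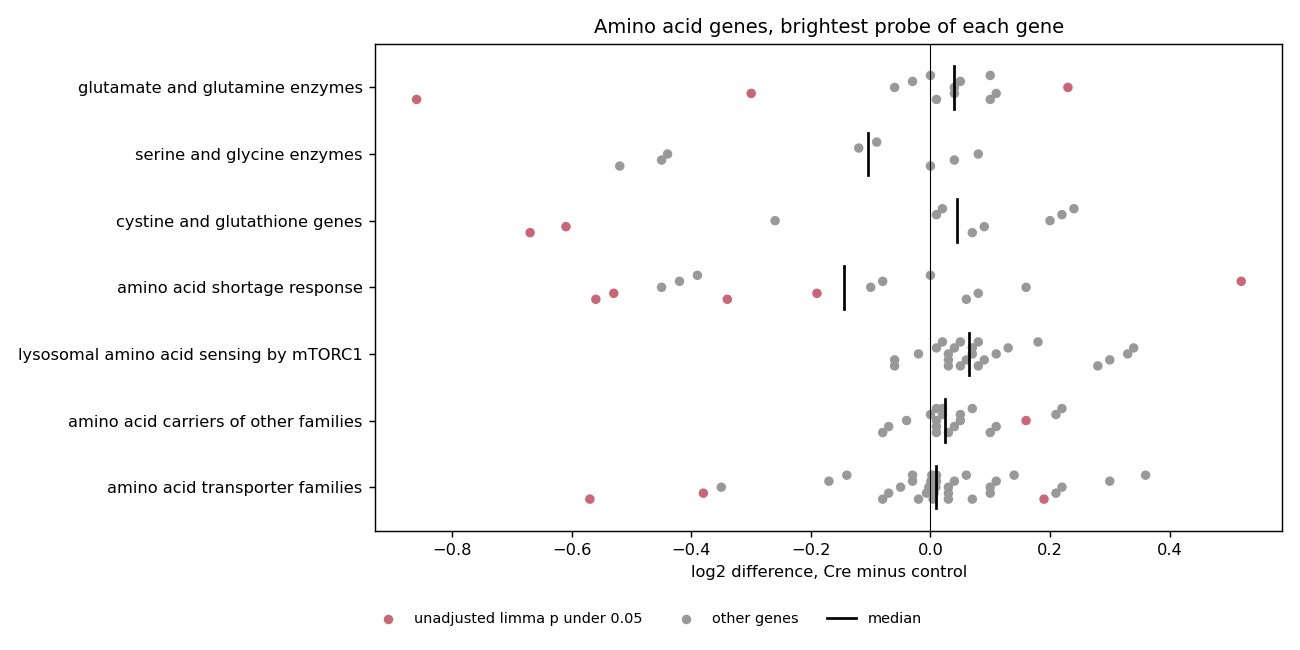
Log2 difference (Cre minus control, x axis) of the brightest probe of each measured gene in 6 lists of amino acid genes and in the transporter families, with black bars at the medians and red points at an unadjusted limma p under 0.05 without the block. The medians lie between -0.14 and 0.06, and the transporters hold 3 red points, Slc7a3, Slc7a11 and Slc38a10.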

How the data were processed

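Total RNA of 6 samples was amplified, coupled to Cy5 and hybridised to 1-colour arrays, as the labels' protocols state. Per the file headers, each deposited scanner file gives the spot's median intensity and a local background intensity, not subtracted. The authors' deposited table holds processed intensity values on a linear scale, every column with a median of 25; the steps behind it are not given in the sources used here. Its columns tracked the spot less the blank mean (r of at least 0.9999), divided by a factor of 1.44 to 1.94 whose choice stays unknown. Members were found by symbol in the platform annotation; 0 symbols changed on matching to RefSeq.

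Spot intensities were background-corrected (normexp on the 2736 blank spots, limma 3.58.1 in R 4.3.3, offset 50), log2 transformed and quantile normalised. Scanner-marked spots were dropped, among the blanks too. Above background means over the blank mean by 2 SD. The 20747 probes above background on at least 3 arrays were fitted with lmFit and eBayes (Cre against control, two-sided) and adjusted by Benjamini-Hochberg over all of them, with a threshold of 0.05. The fit was also run on simulated arrays with independent noise, unlike these arrays, whose deviations correlated by replicate number. No statement here rests on that run.

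Each gene is given by its brightest probe. The text names a list of 17 known carriers, those at an unadjusted p under 0.05 or a difference of 0.5, any whose probes differ in sign by more than 0.2 (none did), and up to 3 genes per pathway list and direction. Other transporters are given by their differences. Outside this rule, the fuller values of Slc1a6, Slc3a1, Slc7a2, Slc7a14, Slc43a1 and Slc43a3, the markers, Gclc, Gclm and the genes named with the replicate block were chosen after they were seen. Members, lists and tests were chosen with earlier results of these data known. Alternatives changed the background, offset, scaling, filter, variance model, arrays and block. Promoters came from RefSeq's GRCm38.p6; 27 of 37 genes matched. The number of arrays limits the precision.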

Additional observations from a re-analysis of the deposited data

How the results depend on the processing

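No transporter probe passed an adjusted p of 0.05 under any alternative run (0 each time), and Slc7a3, Slc7a11, Slc7a5, Slc38a9 and Slc38a10 kept their direction throughout. The count of probes higher at an unadjusted p under 0.05 was 1, and became 0 with the local background column and with the authors' table, 2 with an offset of 16, with array weights and with a trended prior variance, and 3 with the replicate block. The count of lower probes was 2, and became 1 with no background correction, the local background column, no background filter and array weights. With 1 array left out these counts ranged from 0 to 3 (higher) and 0 to 2 (lower). Both counts were 0 without control replicate 3, and the lower one also without Cre replicate 1. Probes without overlap ranged from 3 to 10 in those runs, but fewer arrays in a group make no overlap easier to reach. The share of all probes without overlap was not counted there. The median difference was 0.088 with plain subtraction, 0.033 with the local background column, 0.029 with an offset of 16 and -0.106 in the authors' table, where all probes were shifted by -0.155; with 1 array left out it lay between 0.002 and 0.02. Among the transporters the replicate block added Slc7a2 and Slc43a3 and changed no other call; among the list genes it moved several.

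Directions of transporters that were near 0 or spread widely did change; the cause was not tested. The local background column averaged 179 to 232 units around probes in control arrays and 266 to 322 in Cre arrays, so it differed by group. Around blanks it averaged 57.5 to 63. With that column the values were -0.10 for Slc1a4, 0.19 for Slc1a5, 0.72 for Slc3a2 and 0.25 for Slc7a10. They were 7.7e-05 for Slc38a2, -0.74 for Slc38a3 and -0.10 for Slc38a5. In the authors' table they were -0.28 for Slc1a1, -0.0082 for Slc1a2, -0.04 for Slc1a4, -0.10 for Slc38a5 and -0.16 for Slc43a2. With array weights they were -0.0016 for Slc1a1, 0.02 for Slc38a1 and -0.0087 for Slc38a5, and with median scaling 0.0038 for Slc38a2 and -0.0084 for Slc43a2. With 1 array left out the ranges that crossed 0 were -0.01 to 0.02 (Slc1a1), -0.05 to 0.45 (Slc1a2), -0.0087 to 0.37 (Slc1a3), -0.10 to 0.04 (Slc1a5), -0.36 to 0.09 (Slc3a2), -0.11 to 0.00052 (Slc7a10), -0.07 to 0.06 (Slc38a1), -0.07 to 0.06 (Slc38a2), -0.0098 to 0.02 (Slc38a5) and -0.03 to 0.06 (Slc43a2).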
